A study of Sus scrofa with 8 samples.

Results

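FOLR1, MMAB, MUT and PDXK are genes of folate, vitamin B12 and vitamin B6 handling, and their RNA was measured here in the testes of boars fed a supplement of these vitamins or a control diet. The list started from 5 genes. A probe was taken for a gene if the RefSeq accession it carries belongs to that gene or if the study's own list of probes differing between the diets names it so, and MUT includes its newer name MMUT. This gave 12 of the 43603 probes on the array, 4 for FOLR1, 3 for MMAB, 2 for MUT and 3 for PDXK. TCN1, the fifth gene, had 0 probes by this rule and was not analysed here. The study's list had picked 4 of the 12 probes by their diet difference in these same boars, and the genes were chosen with that difference known. The diet differences of the 12 probes are therefore given as a description, without a test.

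The 8 boars were of the Large White breed and were fed from month 1 to month 10 of age, when testis tissue was taken. Extra methionine, choline, betaine, folate and vitamins B6 and B12 were fed to m_9597, m_9599, m_9499 and m_9527 (supplemented diet, n = 4), while m_9598, m_9600, m_9502 and m_9528 (control diet, n = 4) had a basal amount of most of these nutrients. The diets had been given out at random within litters, and the comparison asks whether the supplement goes along with different gene expression in the testis. Each RNA was hybridized with the dye Cy3 to 1 porcine Agilent array. The brothers m_9597, m_9598, m_9599 and m_9600 lay on one slide (slide 1) and the other 4 boars on a second (slide 2), and effects of this litter and of the slide cannot be told apart. Each slide held 2 boars of each diet, with the supplemented diet at the places 1 and 3 and the control diet at the places 2 and 4, and an effect of the place cannot be told apart from that of the diet.

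Folate carries single carbon units in the cell, and these are used to build DNA bases and to turn homocysteine into methionine, the source of most methyl groups. Vitamin B12 is a cofactor both of that step and of a mitochondrial enzyme that breaks down certain fatty acids and amino acids, and the active form of vitamin B6 is a cofactor of many enzymes of amino acid metabolism. In the testis these vitamins serve dividing germ cells, which copy and methylate their DNA.

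Signals are given as log2 of the spot's median intensity after quantile normalization, in which every array receives the same distribution of values, and a difference of 1 on this scale is a 2-fold difference. By the scanner software's own flag, each of the 12 probes lay well above background in every one of the 8 boars, and 0 of their spots were marked as outliers. The median intensity of an array lay between 108 and 192.5, which was 4.91 to 7.40 times its local background. Pairs of arrays correlated with r between 0.946 and 0.994 across the present probes, which are not independent replicates. The tissue carried the markers of testis. The protamine gene PRM1 (A_72_P223762) read between 18.42 and 18.80 and the Leydig cell gene INSL3 (A_72_P232832) between 18.50 and 18.74 over the 8 boars. Both lie among the top values, which quantile normalization makes the same on every array. These narrow ranges therefore do not show even amounts of their RNA over the boars. In whole tissue, fewer cells of a type and less RNA per cell cannot be told apart.

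FOLR1 encodes folate receptor alpha, a protein of the cell surface that binds folate and takes it into the cell. The RefSeq gene table used for names, of the assembly Sscrofa11.1, holds 2 neighbouring pig genes of this name, 396784 and 397579, with 0 genes between them and 1 pseudogene between the second and FOLR2. The probes A_72_P088571 and A_72_P151576 belong to the first and A_72_P288159 and A_72_P223507 to the second. All 4 had a lower mean on the supplemented diet.

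On the supplemented diet the FOLR1 probe A_72_P288159 read 10.33 in m_9597, 9.84 in m_9599, 10.06 in m_9499 and 10.78 in m_9527, and on the control diet 10.45 in m_9598, 11.50 in m_9600, 11.16 in m_9502 and 11.19 in m_9528. The diets overlapped in a single pair of boars, since m_9598 was low among the controls and m_9527 high among the supplemented boars. The means were 10.25 ± 0.41 (SD, n = 4) and 11.08 ± 0.44 (SD, n = 4), a difference of -0.82 (standard error 0.27). It was -0.89 within slide 1 and -0.75 within slide 2. The probe A_72_P151576 read 9.93, 9.38, 9.44 and 10.37 in the same supplemented boars and 9.92, 11.04, 10.78 and 10.86 in the same controls. Again m_9598 was the lowest control, below m_9597 and m_9527. The difference was -0.87 (standard error 0.29), with -0.82 within slide 1 and -0.91 within slide 2.

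A_72_P088571, the other probe of the first gene, read 12.36, 11.62, 12.23 and 13.09 on the supplemented and 12.21, 13.27, 13.47 and 13.39 on the control diet, in the same order of boars. The diets overlapped here too, since the control boar m_9598 lay below 3 of the supplemented boars, and m_9527 came close to the other controls. The difference was -0.76 (standard error 0.36), with -0.75 within slide 1 and -0.77 within slide 2. The probe A_72_P223507 read 7.84, 7.55, 7.82 and 7.77 against 7.73, 7.99, 8.29 and 8.82. The supplemented boars lay close together, m_9598 lay among them, and the control boar m_9528 was the highest. The difference of -0.46 (standard error 0.23) was -0.26 without m_9528, -0.16 within slide 1 and -0.76 within slide 2. The slide as a block left each of these differences as it was, because the slides are balanced for diet.

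The FOLR1 probes followed each other over the boars to different degrees. Over the 8 boars, A_72_P151576 and A_72_P288159 had r = 0.993 (exact permutation p = 4.96e-05, adjusted p = 0.000645) and a Spearman rho of 0.976 (exact permutation p = 0.000397, adjusted p = 0.00516), although they are assigned to different FOLR1 genes. The correlation was 0.994 without the 2 boars farthest from the median, 0.997 on slide 1 and 0.999 on slide 2. Of the pairs assigned to the same gene, A_72_P088571 and A_72_P151576 had r = 0.944 (exact permutation p = 0.00122, adjusted p = 0.00790) and a rho of 0.881 (exact permutation p = 0.00724, adjusted p = 0.0235), with 0.930 without the 2 farthest boars, 0.991 on slide 1 and 0.993 on slide 2. A_72_P288159 and A_72_P223507 had r = 0.678 (exact permutation p = 0.0533, adjusted p = 0.0867) and a rho of 0.738 (exact permutation p = 0.0458, adjusted p = 0.0745), with 0.778 without the 2 farthest boars, 0.914 on slide 1 and 0.733 on slide 2. For the 3 remaining pairs r was 0.939 (A_72_P088571 with A_72_P288159), 0.7503 (A_72_P088571 with A_72_P223507) and 0.708 (A_72_P151576 with A_72_P223507), with exact permutation p = 0.00184, 0.0183 and 0.0342 and adjusted p = 0.00795, 0.0397 and 0.0634, and rho was 0.833, 0.905 and 0.810, with exact permutation, adjusted p = 0.0400, 0.0198 and 0.0472. Their r without the 2 farthest boars was 0.911, 0.655 and 0.778, on slide 1 0.982, 0.973 and 0.935, and on slide 2 0.994, 0.656 and 0.729. Because the diet had a part in the choice of probes, r was also computed after the mean of each diet had been subtracted, and it was then 0.986, 0.927 and 0.420 for the pairs in the order given (exact permutation within diets, adjusted p = 0.0226, 0.0451 and 0.594) and 0.928, 0.609 and 0.487 for the remaining ones (adjusted p = 0.0451, 0.263 and 0.513). Thus the pair A_72_P088571 and A_72_P223507 had an adjusted p under 0.05 over all boars but not inside the diets. The pair A_72_P151576 and A_72_P223507 had one over all boars for rho alone, and also not inside the diets. These relations belong to a family of 13 pairs of probes of one gene, over which all p-values were adjusted. The genes were chosen with the diet difference known. That can favour the correlations over all boars, and so their p-values, throughout this family.

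The sequences of the closely matching pair show how they are related. They are printed because the end of one is the start of the other, although they carry different gene assignments. Capitals mark the 19 shared bases of each 60-base probe.
A_72_P288159: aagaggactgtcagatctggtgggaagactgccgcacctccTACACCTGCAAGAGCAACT
A_72_P151576: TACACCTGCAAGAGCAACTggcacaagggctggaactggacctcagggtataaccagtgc
Joined over the shared bases they make a stretch of 101 bases. Which of the neighbouring genes gives the signal of each probe was not tested.

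MMAB encodes the enzyme that attaches the adenosyl group to vitamin B12 in mitochondria. Its 3 probes all had a higher mean on the supplemented diet. The probe A_72_P282619, which the study's list names and which carries no RefSeq accession, read 11.55 in m_9597, 11.79 in m_9599, 11.80 in m_9499 and 11.80 in m_9527, against 11.18 in m_9598, 11.27 in m_9600, 11.13 in m_9502 and 10.90 in m_9528. All supplemented boars lay above all controls. The difference was 0.61 (standard error 0.14), with 0.45 within slide 1 and 0.78 within slide 2. Diets without overlap were found for 2 of the 12 probes, this one and a MUT probe, both picked by the study's list, and for 1.13% of the 36982 present probes.

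The MMAB probes that RefSeq assigns to the gene overlapped between the diets. A_72_P296064 read 12.72, 12.81, 12.39 and 12.44 on the supplemented and 12.57, 12.003, 12.05 and 12.17 on the control diet, in the order of boars given above. The control boar m_9598 lay within the range of the supplemented boars, and the other 3 controls were lower than all of them. Its difference was 0.39 (standard error 0.18). A_72_P166451 read 12.31, 12.57, 11.86 and 12.05 against 12.40, 11.84, 11.44 and 11.83. Here the 3 highest boars, m_9597, m_9599 and m_9598, were all on slide 1. The difference was 0.32 (standard error 0.23), and it was 0.17 without the control boar m_9502, 0.19 without the supplemented boar m_9599 and 0.49 without the control boar m_9598.

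These last probes followed each other over the 8 boars with r = 0.905 (exact permutation p = 0.00295, adjusted p = 0.00959) and a rho of 0.905 (exact permutation p = 0.00456, adjusted p = 0.0198), with 0.930 without the 2 farthest boars, 0.950 on slide 1 and 0.900 on slide 2, and with r = 0.916 inside the diets (exact permutation within diets, adjusted p = 0.0451). With A_72_P282619 their r was 0.596 and 0.431 (exact permutation, adjusted p = 0.158 and 0.327) and their rho 0.405 and 0.476 (exact permutation, adjusted p = 0.386 and 0.316). Inside the diets these values were -0.181 and 0.0133.

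**Figure D1:**
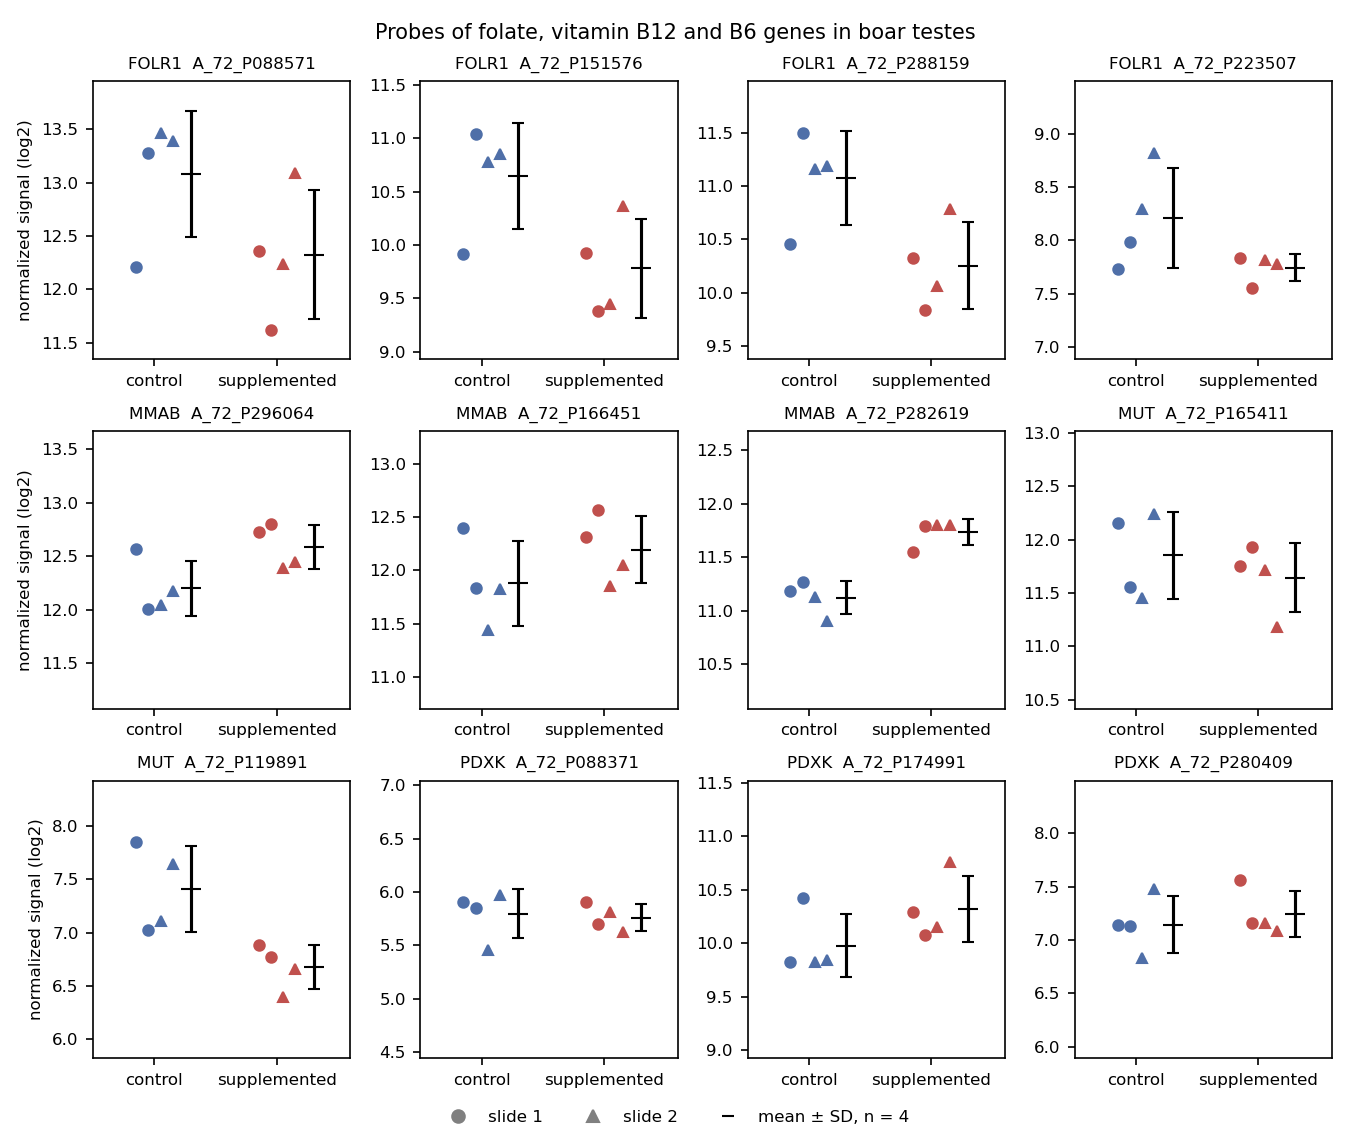
Normalized log2 signal of the 12 probes of FOLR1, MMAB, MUT and PDXK in each boar by diet, with circles for slide 1, triangles for slide 2 and bars for the mean ± SD of 4 boars. The diets do not overlap for MMAB A_72_P282619, at 11.55 to 11.80 against 10.90 to 11.27, and for MUT A_72_P119891, at 6.40 to 6.88 against 7.03 to 7.85.

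The boar m_9598 stood at the low end of the controls for FOLR1 and at the high end for the RefSeq probes of MMAB, and this was looked at over all boars after the values had been seen. Over the 12 pairs of a FOLR1 and an MMAB probe, r lay between -0.877 and -0.607, a sign that the opposite diet differences of the chosen probes partly fix. Inside the diets r lay between -0.801 and -0.0548, and 0 of the 12 pairs had an adjusted p under 0.05 (exact permutation of boars within diets). The lowest r inside the diets was that of A_72_P088571 with A_72_P296064, at -0.801 (exact permutation p = 0.0573, adjusted p = 0.233). The plain r of this pair was -0.875, given without a test because the choice of the genes had a part in it.

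**Figure D2:**
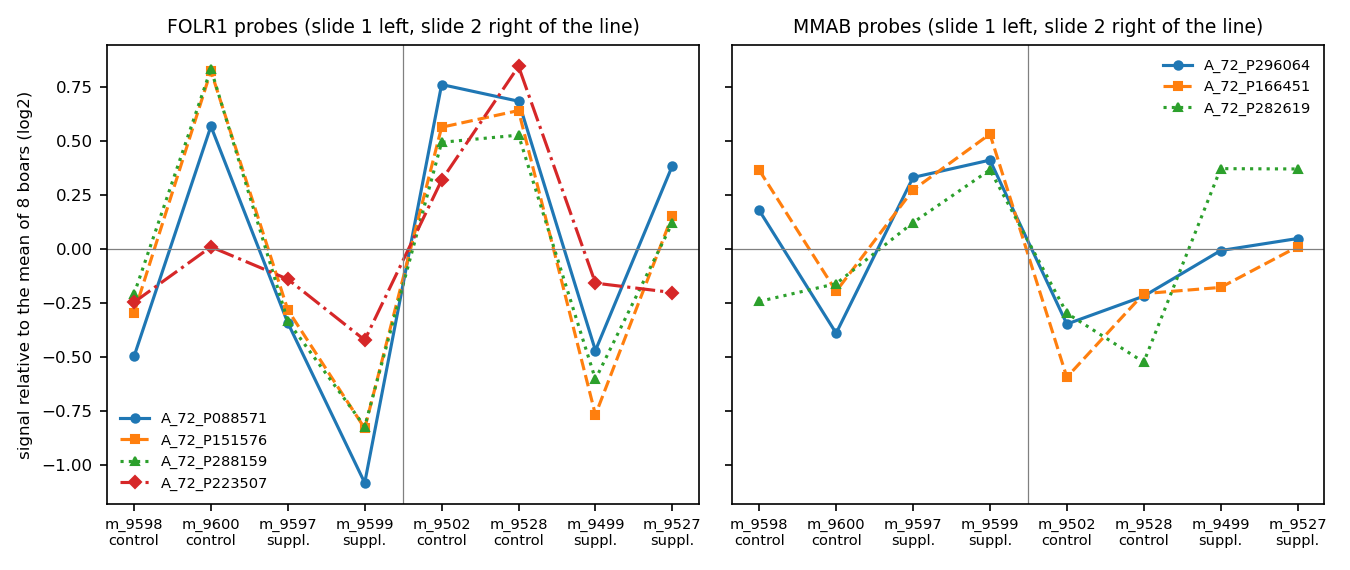
Signal of each FOLR1 probe (left) and MMAB probe (right) in each boar, as log2 difference from that probe's mean over the 8 boars, with slide 1 left and slide 2 right of the vertical line. Lines join the values of a probe and carry no order in time. The control boar m_9598 reads 12.21 for FOLR1 A_72_P088571, the lowest of its diet, and 12.57 for MMAB A_72_P296064, the highest of its diet.

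MUT encodes methylmalonyl-CoA mutase, the mitochondrial enzyme that uses the adenosyl form of vitamin B12. The probe A_72_P119891, named by the study's list, read 6.88 in m_9597, 6.78 in m_9599, 6.40 in m_9499 and 6.66 in m_9527, against 7.85 in m_9598, 7.03 in m_9600, 7.11 in m_9502 and 7.64 in m_9528. All supplemented boars lay below all controls. The difference was -0.73 (standard error 0.22), with -0.61 within slide 1 and -0.85 within slide 2. The probe was dim, at 3.35 to 13.9 times the local background, and with the background subtracted and the arrays scaled to their 75th percentile its difference was -0.92, while with normexp background correction it was -0.51.

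The probe A_72_P165411, which RefSeq assigns to MUT, read 11.75, 11.93, 11.72 and 11.18 on the supplemented and 12.16, 11.56, 11.45 and 12.24 on the control diet. The diets overlapped, with m_9598 and m_9528 highest and m_9527 lowest. The difference was -0.21 (standard error 0.24), with -0.015 within slide 1 and -0.40 within slide 2. It was -0.051 without m_9527, -0.078 without m_9528, -0.10 without m_9598 and -0.34 without m_9502. Both MUT probes together gave r = 0.651 (exact permutation p = 0.0795, adjusted p = 0.115) and a rho of 0.50 (exact permutation p = 0.216, adjusted p = 0.312) over the 8 boars. Inside the diets their r was 0.703 (exact permutation p = 0.151, adjusted p = 0.281).

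The order of boars for A_72_P165411 followed the brightness of the arrays. Its correlation with the log2 median intensity of the array was r = 0.926 (exact permutation p = 0.00136, adjusted p = 0.0164) and rho = 0.905 (exact permutation p = 0.00456, adjusted p = 0.0548), over a family of 12 probes. It was 0.847 without the 2 arrays farthest from the median, 0.901 on slide 1 and 0.939 on slide 2. Inside the diets r was 0.921 (exact permutation p = 0.0122, adjusted p = 0.109). FOLR1 A_72_P088571, A_72_P151576 and A_72_P288159 had r = -0.807, -0.798 and -0.795 with the brightness inside the diets (exact permutation, adjusted p = 0.109 for each). Over all boars their r was -0.480, -0.353 and -0.324, and for FOLR1 A_72_P223507 r inside the diets was -0.151. With the array brightness as a covariate, a setting chosen after seeing the data, the diet difference of MUT A_72_P165411 was -0.054. Those of FOLR1 A_72_P088571, A_72_P151576 and A_72_P288159 were then -0.98, -1.04 and -0.98. The part of array brightness in the MUT and FOLR1 values beyond these figures was not tested.

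The same MUT probe also moved with the spermatid markers, of which 7 of 12 genes had a probe, 9 probes in all. The list's median difference from its mean over the boars was 0.31 in m_9598 and 0.27 in m_9528, the highest of all boars, and -0.22 in m_9527, the lowest. The genes of the list differed in this. CRISP2 (A_72_P305994) read 16.80 in m_9598, 17.39 in m_9528 and 14.96 in m_9527, and ZPBP (A_72_P077476) 16.62, 16.63 and 15.23, whereas ODF1 (A_72_P146571) and PRM2 (A_72_P165251) had their lowest values, 13.77 and 18.11, in m_9598, and ACR (A_72_P035726) had its lowest, 16.82, in m_9598 and m_9527. The list holds 3 probes of CRISP2, and the SPAG6 probe A_72_P013076, which the study's list had picked by its diet difference. The linear signals of the list summed to 1431020 in m_9598, 1716380 in m_9528, 1389890 in m_9597, 1319560 in m_9600, 1278180 in m_9599, 1209310 in m_9499, 1116790 in m_9502 and 1062380 in m_9527, and the brightest probe of the list is that of PRM1. Over the 8 boars the list median and the probe had r = 0.924 (exact permutation p = 0.00191, adjusted p = 0.0402) and rho = 0.857 (exact permutation p = 0.0107, adjusted p = 0.214), with 0.813 without the 2 farthest boars, 0.736 on slide 1 and 0.989 on slide 2. Inside the diets r was 0.930 (exact permutation p = 0.0104, adjusted p = 0.417). The peritubular markers gave r = -0.854 (exact permutation p = 0.00858, adjusted p = 0.114) and rho = -0.690 (exact permutation p = 0.0694, adjusted p = 0.555) with the same probe, with -0.610 without the 2 farthest boars, -0.904 on slide 1 and -0.961 on slide 2. These belong to 40 relations between 10 marker lists and the brightest probe of each of the 4 genes, all computed after the values had been seen. The part of germ cell and peritubular cell content in the MUT values was not tested.

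PDXK encodes pyridoxal kinase, which phosphorylates vitamin B6 on the way to its active form. Its 3 probes are assigned by RefSeq to gene 396983 and are absent from the study's list. A_72_P174991 read 10.29 in m_9597, 10.08 in m_9599, 10.15 in m_9499 and 10.76 in m_9527, against 9.82 in m_9598, 10.42 in m_9600, 9.82 in m_9502 and 9.84 in m_9528. The control boar m_9600 lay within the supplemented boars, and the other controls lay below all of them. The difference was 0.34 (standard error 0.21), with 0.062 within slide 1 and 0.62 within slide 2. Without m_9527 it was 0.20. A_72_P280409 read 7.56, 7.16, 7.16 and 7.09 against 7.14, 7.13, 6.83 and 7.48, and its difference was 0.099 (standard error 0.18). The diets overlapped over most of their range, and the difference was -0.0063 without m_9597, -0.0064 without m_9502, 0.15 without m_9527 and 0.21 without m_9528.

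The PDXK probe A_72_P088371 was the dimmest against its background, at 1.59 to 3.28 times the local background, and was printed in 5 spots on each array. Its boars ranged from 5.62 to 5.91 on the supplemented and from 5.46 to 5.98 on the control diet, and the difference was -0.036 (standard error 0.16), with -0.15 without m_9502, -0.085 without m_9597, 0.0095 without m_9527 and 0.024 without m_9528. The SD between the 5 spots of an array lay between 0.053 and 0.16 with a median of 0.11, beside an SD of 0.17 between the boars' means. A_72_P174991 shared little of its order with the other PDXK probes. It had r = -0.116 with A_72_P088371 and 0.0404 with A_72_P280409 (exact permutation, adjusted p = 0.843 and 0.924) and a rho of 0 and 0.0599 (exact permutation, adjusted p = 1 and 0.973). A_72_P088371 and A_72_P280409 had r = 0.820 (exact permutation p = 0.0125, adjusted p = 0.0326) and rho = 0.778 (exact permutation p = 0.0295, adjusted p = 0.0547), with 0.614 without the 2 farthest boars, 0.424 on slide 1 and 0.973 on slide 2. Inside the diets their r was 0.874 (exact permutation p = 0.0104, adjusted p = 0.0451).

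The PDXK probe A_72_P174991 moved with the macrophage markers, of which 3 of 6 genes had a probe, with 6 of 7 probes present. The list median was 0.67 in m_9600, 0.46 in m_9527 and 0.18 in m_9499, 0.00029 in m_9597 and -0.038 in m_9599, and -0.42 in m_9598, -0.45 in m_9502 and -0.39 in m_9528. The linear signals of the list summed to 3330 in m_9600, 3115 in m_9527, 2127 in m_9499, 1753 in m_9597, 1690 in m_9599, 1416 in m_9502, 1209 in m_9598 and 1117 in m_9528. The brightest probe of the list is one of AIF1, and 1 probe of CD14 was not present. The list median and the probe had r = 0.888 (exact permutation p = 0.00201, adjusted p = 0.0402) and rho = 0.952 (exact permutation p = 0.00114, adjusted p = 0.0456), with 0.898 without the 2 farthest boars, 0.902 on slide 1 and 0.939 on slide 2. Inside the diets r was 0.878 (exact permutation p = 0.0226, adjusted p = 0.451), where a relation on its own could not reach an adjusted p under 0.05. The peritubular markers gave r = 0.826 (exact permutation p = 0.0116, adjusted p = 0.116) and rho = 0.762 (exact permutation p = 0.0368, adjusted p = 0.368) with the same probe, with 0.747 without the 2 farthest boars, 0.898 on slide 1 and 0.813 on slide 2. The part of these cells in the PDXK values was not tested.

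Of the 12 probes, 5 had a higher and 7 a lower mean on the supplemented diet. The sign of the difference was the same on both slides in 10 of the 12, a count that the choice of the genes favours, and the exceptions were the PDXK probes A_72_P088371 and A_72_P280409.

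The slides were compared with the diet in the model, a difference that had no part in choosing the genes. The brothers on slide 1 had lower signals than the boars on slide 2 for FOLR1 A_72_P088571, at 12.37 ± 0.68 (SD, n = 4) against 13.05 ± 0.56 (SD, n = 4). The difference of -0.68 (standard error 0.30) had an adjusted p of 0.615 from limma. MMAB A_72_P166451 was higher on slide 1, at 12.28 ± 0.31 (SD, n = 4) against 11.79 ± 0.25 (SD, n = 4). Its difference of 0.49 (standard error 0.18) had an adjusted p of 0.590 from limma. An unadjusted limma P below 0.05 was found for these 2 of the 12 and an adjusted one for 0, beside 8.11% and 0% of all present probes. Over all present probes 2999 had an unadjusted P below 0.05 for the slide, and without the control boar m_9528 this was 9519, with 9 after adjustment. Whether the diet difference itself depended on the slide was tested by the interaction term, which had an unadjusted limma P below 0.05 in 0 of the 12 and in 2% of all present probes. After adjustment it was below 0.05 in 0 present probes. With 2 boars per diet and slide the interaction had little precision, with standard errors from 0.28 to 0.64 over the 12 probes.

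Genes with a similar order of boars were sought among the 2918 present probes with a gene name, for the brightest probe of each gene over the 8 boars. For FOLR1 A_72_P088571 they were GBE1 (r = 0.842) and DDO (r = 0.838). For MMAB A_72_P296064 they were SERINC3 (r = 0.934) and MED28 (r = 0.922). MUT A_72_P165411 was most like TRAF6 (r = 0.986) and CSTF1 (r = 0.978). PDXK A_72_P174991 was most like TPM1 (r = 0.963) and GUCY1A3 (r = 0.929). These are the highest values of many and have no test of their own.

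Other genes of these pathways were taken from lists of folate, vitamin B12, vitamin B6, methionine and methyltransferase genes. Of 116 genes 30 had a probe, and beside the genes above these were 26 genes with 38 probes, all present. RefSeq assigns 32 of the 38 to their gene. The other 6, of SGPL1, GPT2, BCAT1 and GAMT, have their name from the study's list, which had picked them by the diet difference in these boars, and their diet differences are described without a test. Of the 32, 0 had a limma P below 0.05 for the diet, beside 1.86% of all present probes, and 0 after adjustment, beside 0%. The diets overlapped in all 32, and they did not overlap for 1.13% of all present probes. The median difference of the 32 was -0.016, beside -0.0028 over all present probes. It lay between -0.065 without m_9599 and 0.021 without m_9598.

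The folate lists had few further probes. FOLR2, a folate receptor known from macrophages, had a difference of 0.056 (A_72_P232533), between 0.024 without m_9502 and 0.12 without m_9528. The list named folate cycle enzymes had 5 probes and is not confined to enzymes specific to folate. It took in ATIC, QDPR, DLD, a subunit of the glycine cleavage system, and FTCD, which hands a carbon unit from histidine breakdown to folate. The 5 differences lay between -0.39 for DLD (A_72_P165436) and 0.020 for FTCD (A_72_P303024). Their median was -0.15, but 0.0067 without m_9527 and -0.043 without m_9598. The DLD difference was -0.16 without m_9527, and that of FTCD lay between -0.16 without m_9528 and 0.14 without m_9502. ABCD4 (A_72_P019881), which helps vitamin B12 out of the lysosome, differed by 0.036, with -0.032 without m_9528 and 0.12 without m_9600. The 4 probes of MCEE and PCCB, enzymes just before MUT in the breakdown of propionate, had a median of -0.40, which was -0.11 without m_9527, -0.20 without m_9528, -0.24 without m_9598 and -0.67 without m_9502, and lay between -0.49 (A_72_P028276) and 0.16 (A_72_P035961), both of PCCB. The lowest was -0.25 without m_9528, -0.25 without m_9527 and -0.80 without m_9502, and the highest 0.11 without m_9597. The 3 probes whose difference was negative had their highest values in m_9598 and m_9528 and their lowest in m_9527, as MUT A_72_P165411 had. PCCB A_72_P196747 read 8.14, 8.53 and 6.07 and MCEE A_72_P178091 11.35, 11.21 and 9.90 in these boars.

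Of the 12 probes of enzymes that use vitamin B6, SGPL1 (A_72_P296279), which breaks down sphingosine phosphate, was the lowest on the supplemented diet. It read 12.18, 12.45, 11.92 and 11.75 in the supplemented boars and 12.85, 12.59, 12.90 and 13.03 in the controls, in the order used above. The diets did not overlap, and the difference was -0.77 (standard error 0.18), with -0.40 within slide 1 and -1.13 within slide 2. Among the 38 probes 1, this one, had a limma P below 0.05 for the interaction of diet and slide, beside 2% of all present probes, and 0 after adjustment. GPT2 (A_72_P084711), an alanine transaminase, read 7.49, 7.50, 7.45 and 7.77 against 7.16, 7.25, 6.94 and 7.24, again without overlap, and its difference was 0.41 (standard error 0.14). The BCAT1 probe A_72_P285289 was well above background on 3 of the 8 arrays, at 1.26 to 2.27 times the local background. BCAT1, which transfers the amino group of branched-chain amino acids, overlapped between the diets, with a difference of -0.21. All 3 have their name from the study's list, and the median of the 9 probes assigned by RefSeq was -0.066, between -0.17 without m_9502 and -0.032 without m_9528. In the list of the methionine cycle, AHCY (A_72_P223687), which clears S-adenosylhomocysteine, had a difference of 0.30, and MAT2B (A_72_P117836), a regulatory subunit of the enzyme that makes S-adenosylmethionine, of -0.29. Without m_9528 the AHCY difference was 0.14, and it was 0.096 within slide 1 and 0.51 within slide 2. That of MAT2B was -0.17 without m_9598, -0.44 within slide 1 and -0.13 within slide 2.

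Of the 13 methyltransferase probes, the 3 of GAMT, the last enzyme of creatine synthesis, did not overlap between the diets, beside 1.13% of all present probes. The study's list had picked these 3 for their difference. The GAMT probe A_72_P063331 read 13.51, 13.52, 13.71 and 14.06 on the supplemented and 12.97, 13.42, 13.44 and 12.71 on the control diet. The supplemented boar m_9597 and the control boar m_9502 were separated by a small step only. The difference was 0.56 (standard error 0.21). PEMT (A_72_P035866), which makes phosphatidylcholine, had the lowest difference of the list, -0.26, which lay between -0.49 without m_9502 and 0.027 without m_9527 and was 0.058 within slide 1 and -0.57 within slide 2, and the median of the 10 probes assigned by RefSeq was 0.14, between 0.052 without m_9527 and 0.28 without m_9499. For the slide, 4 of the 38 had a limma P below 0.05, beside 8.11% of all present probes, and 0 after adjustment.

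**Figure D3:**
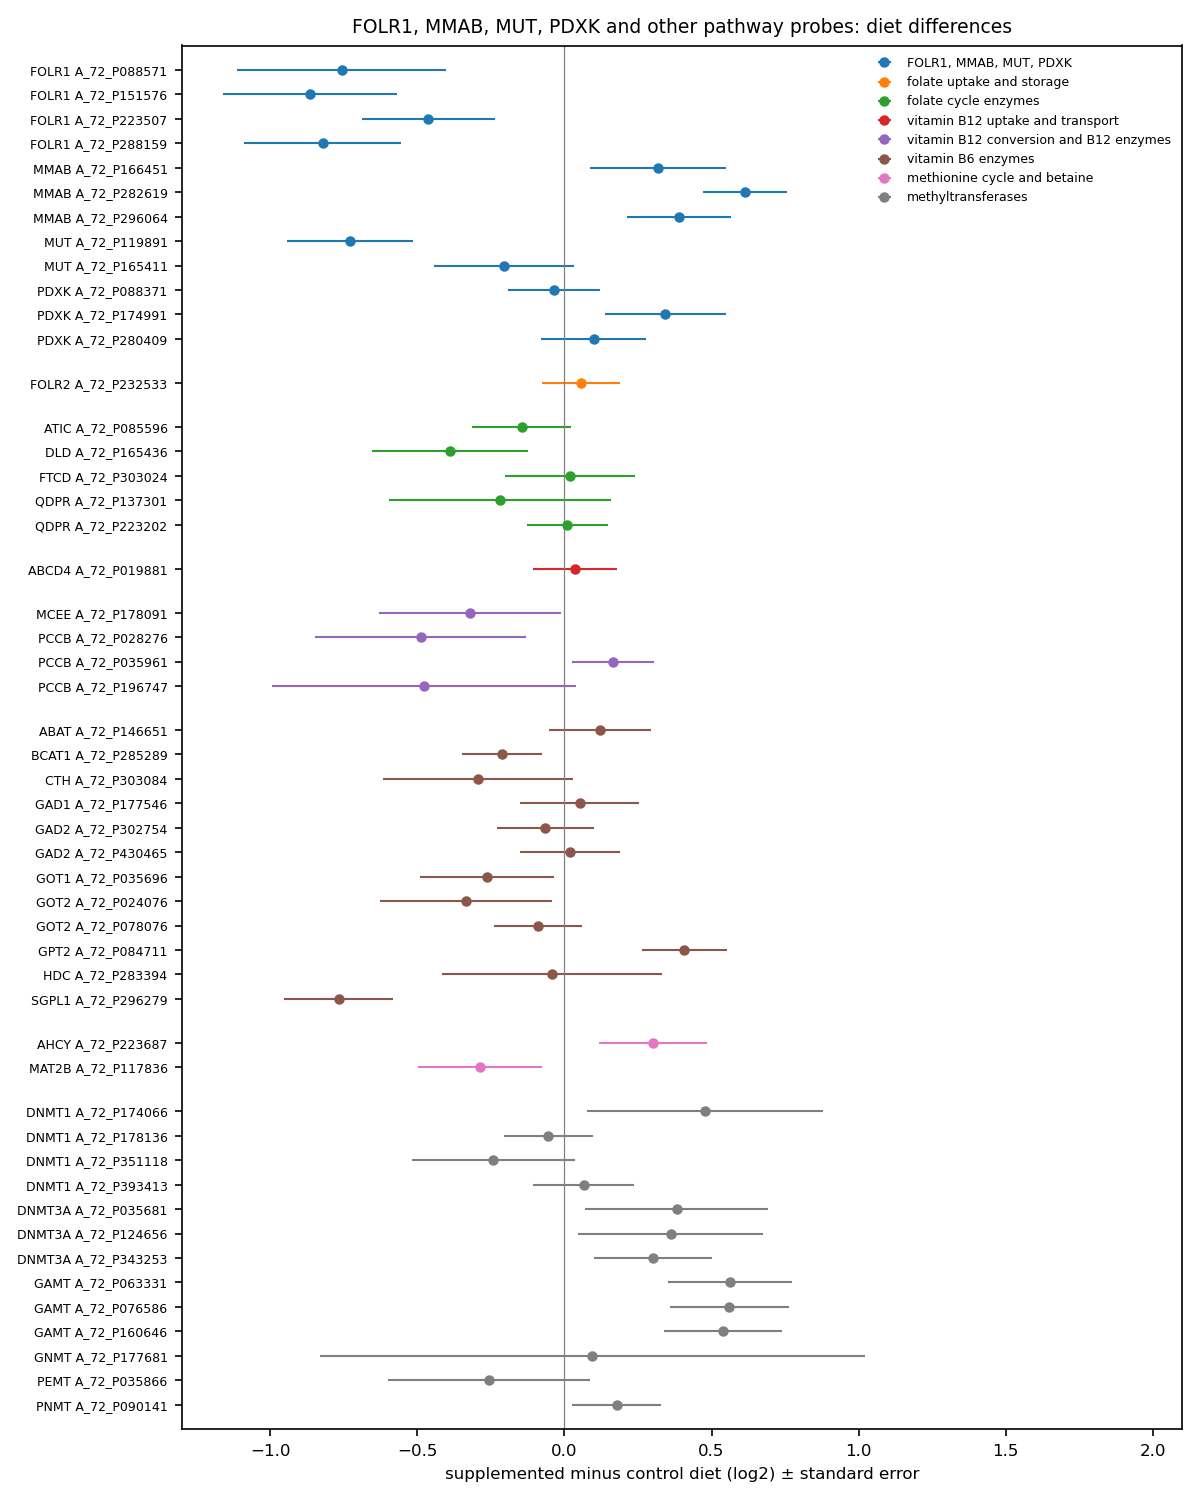
Difference between the supplemented and the control diet, on the log2 scale, for the 12 probes of FOLR1, MMAB, MUT and PDXK (top) and 38 other probes of the pathway lists, coloured by list, with bars for ± 1 standard error from limma. The other probes lie between -0.77 for SGPL1 and 0.56 for GAMT.

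The cell type markers were read in the same way. In each of the 10 lists 0 probes had a limma P below 0.05 for the diet, beside 1.86% of all present probes. The spermatid probe of SPAG6 (A_72_P013076) is named in the study's list, and its diet difference was -0.29. The median diet differences lay between -0.35 for the Leydig cell list and 0.34 for the macrophage list. With a boar left out the Leydig median lay between -0.81 without m_9499 and -0.057 without m_9527 and the macrophage median between 0.22 without m_9527 and 0.60 without m_9600. The macrophage median was -0.12 within slide 1 and 0.77 within slide 2. The brightest probes were those of INSL3 for Leydig cells, AMH for Sertoli cells, UCHL1 for spermatogonia, SPO11 for spermatocytes, PRM1 for spermatids, DES for peritubular cells, AIF1 for macrophages, PECAM1 for endothelium, HBE1 for red blood cells and EPCAM for duct epithelium. SPO11 and HBE1 were the single genes of their lists with a probe, and brightness of different probes does not compare the amounts of their RNA. The Leydig list was highest in m_9499, at a median of 1.12, and lowest in m_9527, at -0.92, which are both supplemented boars. The EPCAM probe A_72_P146646 read 9.65, 12.74, 11.36 and 11.35 on the supplemented and 13.34, 12.64, 11.27 and 12.62 on the control diet, a difference of -1.19 (standard error 0.62). The other EPCAM probes differed by -1.15 (A_72_P420519) and -0.95 (A_72_P124201). Without m_9597 the EPCAM differences were -0.65, -0.70 and -0.50, and that of A_72_P146646 was -1.79 within slide 1 and -0.59 within slide 2. The rest of the duct epithelium list did not share differences of this size, with 0.26 for AQP1, 0.051 for ESR1 and -0.18 and -0.15 for CDH1. The median of that list was -0.18. For FOLR1 and MMAB, 0 of their relations to the 10 lists had an adjusted p under 0.05 (exact permutation over the 40 relations).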

How the data were processed

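The authors deposited, for each of the 8 boars, the scanner output of Agilent Feature Extraction 10.5.1.1, with the intensity of every spot not normalized between arrays, and with flags on background, outliers and saturation. A deposited table holds log2 values that the authors had normalized between arrays, and it served as an alternative. The gMedianSignal of spots that are not controls was set to log2 without background subtraction, quantile-normalized and averaged over the spots of a probe. Differences of dim probes are understated by this. A probe was present if a signal above 25 and the flag gIsWellAboveBG were found on 2 or more of the 4 arrays of a diet, which held for 36982 of 43603 probes. Of the 3239 probes with a RefSeq accession, 2628 matched the RefSeq gene table, and with the study's list 3064 probes had a name.

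Diets, slides and their interaction were fitted with limma 3.58.1 (lmFit and eBayes, two-sided) in R 4.3.3, and P-values were adjusted by Benjamini-Hochberg over all present probes. The code was tested on simulated data. Correlations over boars used two-sided exact permutation tests (all 40320 orders, or 576 within diets), adjusted within each family. The plots come from matplotlib 3.10.9 (Python 3.11.15). Genes, pathway lists and marker lists were chosen with earlier results of these data known. Named from the lists were probes with P below 0.05 for diet and the highest and lowest difference of each list, the 2 genes most like each gene's brightest probe, and the gene of the brightest probe in each marker list. The other genes of the lists were named after their values had been seen.

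Alternatives were scaling to the 75th percentile of each array, for gMedianSignal and for gProcessedSignal, from which background is subtracted, normexp with an offset of 50, the deposited log2 values, no filter or presence on all 8 arrays, an intensity trend with robust variances, the slide as a block, each slide alone and each boar left out. The removal of outlier spots and the array brightness as covariate were chosen after seeing the data. Precision is limited by the number of arrays.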

Additional observations from a re-analysis of the deposited data

Results flagged for a closer look

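A boar was noted when its gap to the nearest of the other 3 boars on the same diet, as a share of the whole range, passed Dixon's critical value for the 95% level. This happened in 5 of 34 groups tested. Chance flags about 1 in 20 groups, here 1.7, and the probes of one gene are not independent. The FOLR1 probe A_72_P088571 was low in the control boar m_9598, at 12.21 against 13.27 to 13.47 in the other controls. The MMAB probe A_72_P282619 was low in the supplemented boar m_9597, at 11.55 against 11.79 to 11.80. The PDXK probe A_72_P174991 was high in the control boar m_9600, at 10.42 against 9.82 to 9.84. The PDXK probe A_72_P280409 was high in the supplemented boar m_9597, at 7.56 against 7.09 to 7.16. The GPT2 probe A_72_P084711 was high in the supplemented boar m_9527, at 7.77 against 7.45 to 7.50. What set these boars apart was not tested.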

How the results depend on the processing

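No paired analysis was possible because the labels carry no replicate numbers that tie a supplemented boar to a control, and the litters of the slide 2 boars are not given. Blocking was possible by slide, with slide 1 a single litter, and left the 12 diet differences as they were. Of the 12 diet differences, 10 kept their sign under all 20 alternatives, and the PDXK probes A_72_P088371 and A_72_P280409, with differences near 0, changed sign in 4 and 3 of them. For MMAB A_72_P282619 slide 1 alone (0.45) and slide 2 alone (0.78) moved the difference by more than the spread between boars. The slide difference of MMAB A_72_P282619 (0.041) turned with boars left out in turn (-0.038 to 0.12), that of PDXK A_72_P174991 (0.0076) with boars left out (-0.17 to 0.19) and with gProcessedSignal (-0.089), and that of PDXK A_72_P088371 (0.12) with gMedianSignal scaled to the 75th percentile (-0.087). In limma 0 of these slide differences were below 0.05 after adjustment, before or after the change. Over all present probes, 689 had P under 0.05 for the diet, 2381 on slide 1 alone and 359 on slide 2 alone, which are fits of fewer boars, and 339 to 6155 with a boar left out (369 without m_9598, 1213 without m_9600, 6155 without m_9502, 438 without m_9527 and 339 without m_9528). After adjustment there were 0, with 3 on slide 1 alone and 0 to 1 with a boar left out, the 1 without m_9502. Between the slides 2999 had P under 0.05, with 1557 to 9519 when a boar was left out (1906 without m_9597, 1557 without m_9599, 1963 without m_9598 and 9519 without m_9528). After adjustment there were 0, with 2 for gProcessedSignal and 3 for gMedianSignal scaled to the 75th percentile, and 0 to 9 with a boar left out (1 without m_9499, 2 without m_9598 and 9 without m_9528). The interaction had 738 with P under 0.05 and 360 to 5830 with a boar left out (387 without m_9597, 360 without m_9599, 1204 without m_9499, 400 without m_9600, 5830 without m_9502 and 1520 without m_9528), and 0 after adjustment in every setting run. The cause of these changes was not tested. Signal over background limits the dim probes most, PDXK A_72_P088371 at 1.59 to 3.28 among them.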
